A study of Mus musculus with 18 samples.

Results

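Unstimulated synovial fibroblasts from arthritic mice were compared with unstimulated synovial fibroblasts from naive mice, 3 RNA libraries against 3, out of 18 libraries in the series. All 6 libraries were chosen by their labels alone. Synovial fibroblasts are the connective tissue cells of the joint capsule, and the cells here were sorted from the paws of mice labelled WT. Arthritis in the arthritic mice was the serum-transfer model (STIA), in which serum of K/BxN mice inflames the joints, and the naive mice had no such treatment. Beside these groups the series holds naive cells given fibroblast growth factor 2 (FGF2, 10 ng/mL), osteopontin (OPN, 50 ng/mL) or both for 3 days, and STIA cells given OPN. The unstimulated cells received neither factor. The labels do not say whether replicates were separate mice or separate cultures, so p-values measure the spread between these libraries, which may be technical. The sources used here do not give age, the time after serum, the sort gates or the time the unstimulated cells spent in culture.

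In a healthy joint the synovium has a thin lining of fibroblasts that secrete lubricin, over a sublining of fibroblasts around vessels. Immune complexes in K/BxN serum activate complement, neutrophils and macrophages in the joint, and fibroblasts respond by proliferating, by secreting chemokines and cytokines, and by remodelling matrix. Fibroblasts that contract and lay down stress fibres of smooth muscle actin are called myofibroblasts, a state that stiff surfaces and transforming growth factor beta promote.

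The 6 libraries held 27678577 to 36910640 counts, and 3 counts, taken as the floor of detection, equalled 0.08128 to 0.1084 CPM (counts scaled to a common library total) per library; this floor covers counting error only. Over the 15072 genes tested the first principal component of the 6 libraries held 60.6% of the variance and separated STIA from naive, and the next (11.1%) set STIA replicate 3 apart from the other STIA libraries. The 10 highest genes took 13.6 ± 0.403% of counts in naive and 11.4 ± 0.407% in STIA (SD, n = 3; two-sided exact permutation p = 0.10, the smallest that 3 against 3 allow). Fibroblast transcripts were high in all 6, as for vimentin (Vim) at 4807, 5316 and 5037 CPM in naive and 5959, 5536 and 5725 CPM in STIA. Of the macrophage markers C1qb and Tyrobp had 0 counts in all 6 libraries, and Ptprc had 0 counts in naive and 11 in STIA. The summed level of 13 macrophage markers was 13.97 to 15.33 CPM in naive and 14.0 to 15.54 CPM in STIA. Of the 6 of them tested 1 was higher and 0 lower: Cd68, a lysosomal protein of macrophages, at 1.55, 1.03 and 1.15 CPM in naive and 1.76, 2.26 and 1.92 CPM in STIA (0.66 ± 0.22, adjusted p = 0.0204), a call lost without STIA replicate 2 or naive replicate 2 or 3 (adjusted p up to 0.0923). Neutrophil and lymphocyte markers summed to at most 0.47 CPM, and S100a9, Cd3e, Retnlg and Nkg7 were at 0 throughout. Schwann cell markers summed to 42.23 to 46.87 CPM in naive and 30.34 to 40.61 CPM in STIA. All 7 were tested, with 2 lower and 0 higher. The lower ones were S100b, at means of 6.95 and 4.41 CPM, and Mbp, at 4.26 and 2.69 CPM. Sox10, at 9.83 and 8.79 CPM, did not pass (adjusted p = 0.35). Endothelial markers summed to 10.81 to 13.07 CPM in naive and 9.94 to 11.85 CPM in STIA, mostly Tek. Of the 5 of them tested 2 were higher and 1 lower. Those higher were Kdr, at means of 1.00 and 2.54 CPM, and Pecam1, at 0.0896 and 0.349 CPM. The lower one was Tek, at 9.49 and 6.35 CPM. Xist, the transcript of the inactive X chromosome, was at 365.7 to 437.1 CPM in naive and 299.4 to 327.9 CPM in STIA on plain totals, and Y-linked genes were at 0 counts apart from 1 count of Uty in STIA. In bulk RNA a smaller share of a cell subtype and less RNA per cell cannot be told apart, and this holds for every result below.

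Of 15072 genes tested, 5550 (36.8%) differed between STIA and naive at a Benjamini-Hochberg adjusted p below 0.05 in edgeR's quasi-likelihood test, the threshold used throughout. STIA was higher for 2810 genes (18.6%) and lower for 2740 (18.2%). At least 2-fold, 350 genes (2.32%) were higher and 496 (3.29%) lower. The median log2 fold change over all genes was -0.00979. The libraries of the 2 groups did not overlap in CPM for 7615 genes (50.5%). The gene lists below are read against these shares. The largest rises and falls below had to be free of overlap to be named, so that trait is no result for them. Unless stated otherwise, a level is the CPM after TMM scaling, values in a sentence run from replicate 1 to replicate 3, log2 fold changes are STIA over naive ± SE from the model, and p-values are adjusted over all 15072 genes.

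**Figure D1:**
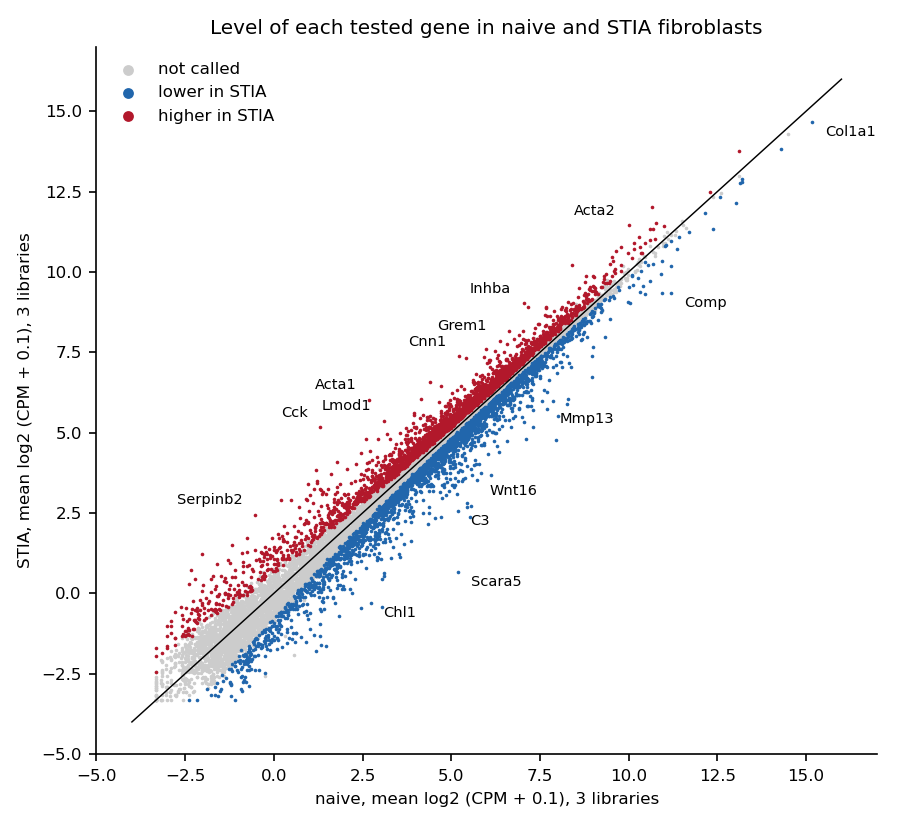
Mean level of each tested gene in the 3 naive libraries (x axis) and the 3 STIA libraries (y axis), as log2 (CPM + 0.1). Red points passed the test as higher in STIA (2810 genes), blue points as lower (2740 genes) and grey points did not pass; named points are genes described in the text, and the line marks equal levels.

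Of the 40 gene lists examined that are no markers of other cells, the contractile apparatus had the largest median rise. Of 20 tested contractile and TGF-beta target genes, 16 were higher in STIA and 2 lower, with a median log2 fold change of 1.30 against the -0.00979 of all genes. Acta2, smooth muscle alpha-actin and the usual marker of myofibroblasts (chromosome 19, 34241090 to 34255590, GRCm38), stood at 955, 1108 and 1009.5 CPM in naive and 2739, 2838 and 2808 CPM in STIA. Each STIA library was above each naive library by a wide margin, with little spread inside either group. The log2 fold change was 1.45 ± 0.29 (adjusted p = 0.00173). Calponin 1 (Cnn1), which binds actin and myosin filaments in smooth muscle, went from 34.5, 42.7 and 34.3 CPM to 178, 168 and 154 CPM (2.17 ± 0.33, adjusted p = 2.48e-04). For leiomodin 1 (Lmod1), a nucleator of actin filaments, the levels were 7.86, 9.001 and 8.69 CPM in naive and 41.6, 41.2 and 41.1 CPM in STIA (2.28 ± 0.20, adjusted p = 3.09e-07). The smooth muscle myosin heavy chain Myh11 was scarce in naive cells, at 2.68, 1.74 and 1.88 CPM, and reached 10.1, 8.95 and 9.23 CPM in STIA (2.16 ± 0.30, adjusted p = 2.18e-05).

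Actin genes of other muscle types moved the same way. Gamma-enteric actin (Actg2) was at 20.5, 21.4 and 20.8 CPM in naive and 93.4, 100.2 and 92.7 CPM in STIA (2.19 ± 0.25, adjusted p = 1.98e-05). Skeletal alpha-actin (Acta1) rose from 5.52, 7.58 and 5.80 CPM to 75.1, 62.5 and 58.3 CPM (3.38 ± 0.34, adjusted p = 6.61e-06), the second largest rise among genes with a group mean of at least 5 CPM. Acta1, Acta2 and Actg2 have near-identical coding sequences, and the sources used here do not say how reads that fit several of them were counted, so their separate levels are uncertain. Of 10 skeletal muscle markers, whose sum was 9.16 to 11.02 CPM in naive and 59.79 to 77.78 CPM in STIA through Acta1, Myf5 and Tnnc2 were at 0 in all 6 libraries, Myod1 averaged 0.0681 CPM in naive and 0.0553 CPM in STIA, and desmin (Des) 2.40 and 2.34 CPM on plain totals. Of 8 pericyte and smooth muscle markers 7 were tested, with 2 higher and 1 lower. Those higher were the smooth muscle myosin Myh11 (2.16 ± 0.30, adjusted p = 2.18e-05) and the adhesion gene Mcam (0.59 ± 0.08, adjusted p = 1.02e-05), and the lower one was the receptor gene Notch3 (-0.56 ± 0.12, adjusted p = 6.47e-04). Higd1b was at 0 throughout, and Rgs5 averaged 2.16 CPM in naive and 2.12 CPM in STIA. The sum of the 8, mostly Cspg4, was 301.68 to 317.39 CPM in naive and 352.55 to 417.11 CPM in STIA; their part in the rise of contractile genes was not tested. The cytoplasmic actins, which every cell uses, were also higher, with Actb at 1704, 1848 and 1709 CPM in naive and 3034, 2959 and 2929 CPM in STIA (0.76 ± 0.08, adjusted p = 1.68e-07) and Actg1 at log2 0.72 ± 0.08 (adjusted p = 1.07e-06). Tropomyosins, which coat actin filaments, rose with them, Tpm2 from 205 ± 20.2 to 481 ± 14.6 CPM (mean ± SD, n = 3) and Tpm1 from 734 ± 19.3 to 1428 ± 48.1 CPM. Filamin A (Flna), an actin crosslinker, was at 1637, 1718 and 1620.3 CPM and 2647, 2506 and 2605 CPM in the same order (0.64 ± 0.09, adjusted p = 1.07e-05). The 2 members that fell were Tgfbi, a secreted TGF-beta-induced protein (-0.88 ± 0.18, adjusted p = 0.00153), and the collagen-binding integrin chain Itga11 (-0.78 ± 0.15, adjusted p = 0.00106). Tagln, another smooth muscle gene of this list, has 67.9% of its exon bases inside other annotated genes and few counts, and its level is not read here.

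Many smooth muscle genes carry a CArG box, the site of serum response factor, just before their start. The 6-base AT core between CC and GG was searched, on both strands, in the 250 bases before each RefSeq gene start (GRCm38.p6), and it was present for 1.44% of the 11388 tested genes with a promoter entry. Among genes called higher it was present for 2.63%, among genes called lower for 1.06%, and among genes at least 2-fold higher for 4.92% (12 of 244). In the contractile list 3 of 13 genes with an entry had it, namely Cnn2, Myl9 and Vcl. Acta2, Cnn1, Lmod1, Tpm1 and Tpm2, which rose as well, had an entry but no match. Acta1, which had a match, is outside this list. These counts are descriptions of letters, the CArG box was added to the search after the data were seen, and no match in this window says nothing about sites elsewhere. The 4 stretches below show the box in capitals, from 20 bases before it to the base just before the gene start, because these genes rose and hold it close to the start.
Acta1 (chr8:123894776-123894868, minus strand): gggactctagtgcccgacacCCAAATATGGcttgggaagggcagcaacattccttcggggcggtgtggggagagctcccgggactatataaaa
Myl9 (chr2:156775283-156775463, plus strand): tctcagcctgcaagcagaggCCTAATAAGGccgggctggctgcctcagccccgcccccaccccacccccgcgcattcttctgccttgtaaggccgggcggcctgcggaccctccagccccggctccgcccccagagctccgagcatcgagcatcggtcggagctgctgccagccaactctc
Vcl (chr14:20929151-20929397, plus strand): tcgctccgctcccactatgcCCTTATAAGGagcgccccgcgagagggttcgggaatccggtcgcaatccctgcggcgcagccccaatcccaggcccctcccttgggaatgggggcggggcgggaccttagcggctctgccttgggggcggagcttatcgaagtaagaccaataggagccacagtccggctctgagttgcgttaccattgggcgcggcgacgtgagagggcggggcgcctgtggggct
Cnn2 (chr10:79988524-79988599, plus strand): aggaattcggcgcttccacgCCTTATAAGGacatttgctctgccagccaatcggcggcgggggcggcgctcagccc

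The genes behind these stretches rose by different amounts. Vinculin (Vcl), which ties actin to integrin adhesions, was at 219, 216 and 225 CPM in naive and 396, 400.1 and 388 CPM in STIA (0.85 ± 0.09, adjusted p = 1.68e-07), with 25.5% of its exon bases shared with another annotated gene. The regulatory myosin light chain Myl9 was at 90.4, 109.6 and 99.4 CPM and 281, 296 and 291 CPM (1.54 ± 0.27, adjusted p = 6.49e-04). Calponin 2 (Cnn2) was at 319, 327 and 298 CPM and 551, 527 and 521 CPM (0.76 ± 0.10, adjusted p = 3.82e-06). Myl9 and Cnn2 were picked for their promoters after their values were seen. In all 3 genes the lowest STIA library lay above the highest naive library.

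**Figure D2:**
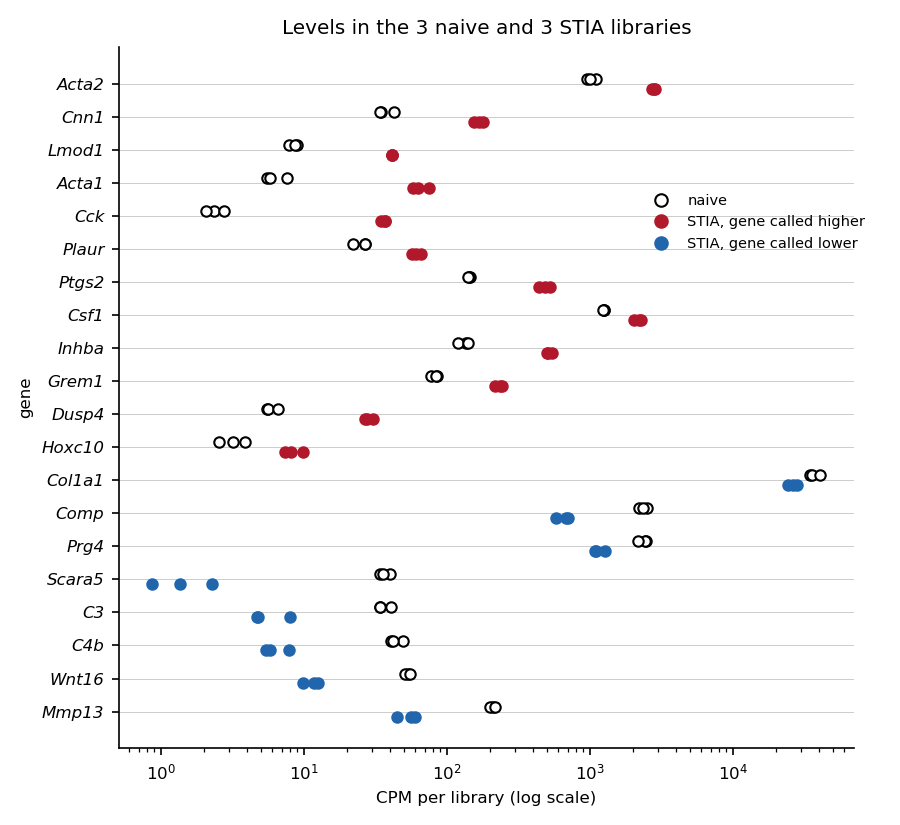
Level of 20 genes in each library (x axis, CPM on a log scale), with 3 naive libraries as open circles and 3 STIA libraries as filled circles. The contractile genes Acta2, Cnn1, Lmod1 and Acta1 and the secreted factors Inhba and Grem1 stand to the right in STIA, and Scara5, C3, C4b, Wnt16 and Mmp13 stand to the left, with no overlap between groups. For Cnn1, Lmod1, Acta1, Scara5, C3 and C4b, named among the largest rises or falls, lack of overlap was a condition of being named.

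Among genes with a group mean of at least 5 CPM the largest rise was that of Cck, which encodes the peptide hormone cholecystokinin (chromosome 9, 121489824 to 121495694). It was at 2.37, 2.06 and 2.74 CPM in naive and 37.0, 36.8 and 34.4 CPM in STIA, so that all 3 STIA libraries were alike and far above naive. Its log2 fold change was 3.91 ± 0.27 (adjusted p = 8.19e-08). Plac8, a small cysteine-rich protein, was near 1 CPM in naive (1.17, 0.850 and 1.11 CPM) and at 6.86, 6.91 and 8.38 CPM in STIA (2.81 ± 0.23, adjusted p = 7.41e-09). The serotonin receptor gene Htr1b was at 2.87, 1.67 and 2.05 CPM and 13.7, 15.4 and 13.4 CPM (2.68 ± 0.18, adjusted p = 4.23e-10). Car8, a carbonic anhydrase-related protein, was at 2.62, 2.23 and 1.88 CPM in naive and 13.2, 10.6 and 9.59 CPM in STIA (2.31 ± 0.29, adjusted p = 2.33e-05). All 4 genes were low in naive cells.

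Scara5, a ferritin receptor of the scavenger receptor family (chromosome 14, 65666403 to 65764826), fell most among genes with a group mean of at least 5 CPM. It was at 33.9, 39.8 and 35.9 CPM in naive and 1.35, 0.873 and 2.27 CPM in STIA, and no STIA library came near the naive range. The log2 fold change was -4.61 ± 0.45 (adjusted p = 4.32e-06). Steap4, a metalloreductase of iron and copper, was at 8.71, 8.89 and 6.77 CPM in naive and 0.496, 0.364 and 1.10 CPM in STIA (-3.65 ± 0.26, adjusted p = 8.38e-10). The adhesion molecule gene Chl1 went from 5.90, 6.41 and 7.36 CPM to 0.468, 0.728 and 0.959 CPM (-3.22 ± 0.38, adjusted p = 7.06e-06). Sfrp2, a secreted Wnt modulator that marks sublining fibroblasts, went from 43.3, 49.1 and 45.8 CPM to 4.08, 3.78 and 7.39 CPM (-3.19 ± 0.36, adjusted p = 2.33e-05). Cdsn, known as a keratinocyte adhesion protein, had an unusually high level here, at 236, 247 and 255 CPM in naive and 21.8, 29.1 and 30.5 CPM in STIA (-3.18 ± 0.31, adjusted p = 6.37e-06), while keratinocyte markers summed to at most 0.51 CPM. The imprinted gene Mest, active in embryonic mesoderm, fell from 49.0, 46.0 and 46.2 CPM to 6.20, 5.57 and 7.78 CPM (-2.86 ± 0.19, adjusted p = 1.62e-08), with 23.1% of its exon bases shared with another gene. Lbp, which binds bacterial lipopolysaccharide, was at 43.7, 46.4 and 39.1 CPM and 6.75, 5.97 and 8.13 CPM (-2.63 ± 0.31, adjusted p = 2.51e-05). The matrix protein gene Abi3bp was at 288, 255 and 235 CPM and 42.8, 37.4 and 58.3 CPM (-2.49 ± 0.32, adjusted p = 5.51e-05).

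Collagen genes were lower more often than higher in STIA. Of 24 tested collagen chains 13 were lower and 7 higher, with a median of -0.36. Col1a1, the main chain of type I collagen and the highest gene of the list in counts, was at 34544, 35623 and 40747 CPM in naive and 26404, 24363 and 27976 CPM in STIA. Naive replicate 3 was the highest of the 6, and the groups did not overlap (-0.49 ± 0.11, adjusted p = 0.00119). Col1a2 changed by -0.48 ± 0.08 (adjusted p = 1.08e-04) on the log2 scale. Col3a1, the type III chain of soft tissue, stood at 8047, 8017 and 8813 CPM and 3982, 4418 and 5154 CPM (-0.88 ± 0.20, adjusted p = 0.00313). The type VI chains Col6a1 and Col6a2, which form beaded filaments around cells, changed by -0.83 ± 0.11 (adjusted p = 4.66e-06) and -0.93 ± 0.15 (adjusted p = 2.30e-04). Col4a1 and Col4a2, the main chains of basement membrane collagen, both rose. Col4a1 was at 805, 771 and 832 CPM in naive and 1581, 1624 and 1619.6 CPM in STIA (1.003 ± 0.09, adjusted p = 1.96e-08), and Col4a2 changed by 0.78 ± 0.09 (adjusted p = 4.49e-07). The 2 chains of type VIII collagen went opposite ways, Col8a1 up from 273 ± 27.0 to 463 ± 16.7 CPM and Col8a2 down from 129 ± 14.0 to 44.8 ± 2.10 CPM.

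Among 30 elastic fibre and matricellular genes 12 were lower and 5 higher, and among 19 proteoglycan and hyaluronan genes 9 were lower and 3 higher (median -0.38). Comp, a pentameric glycoprotein of tendon and cartilage, showed 2212, 2504 and 2369 CPM in naive and 699.6, 579 and 679.5 CPM in STIA. The 3 STIA libraries lay far under the 3 naive libraries, without overlap (-1.86 ± 0.14, adjusted p = 4.27e-08). Its relative Thbs4 went from 1905, 2071 and 1898 CPM to 596, 644 and 711 CPM (-1.59 ± 0.13, adjusted p = 6.30e-08). Thrombospondin 1 (Thbs1) had the largest rise in absolute level, with means of 8904 ± 381 and 14052 ± 955 CPM (0.66 ± 0.24, adjusted p = 0.0436); it lost its call when any 1 of the 6 libraries was left out (p between 0.0733 and 0.118) and in limma-voom (adjusted p = 0.089). Tenascin C (Tnc), a glycoprotein of wounds and inflamed joints, was at 866, 923 and 856 CPM and 1815, 1696 and 1796 CPM (1.005 ± 0.08, adjusted p = 4.38e-09). Periostin (Postn) was at 1187, 1149.8 and 1088 CPM and 1792, 1923 and 2005 CPM (0.74 ± 0.11, adjusted p = 3.19e-05). Of the lysyl oxidases that crosslink collagen, Loxl3 rose (0.93 ± 0.10, adjusted p = 6.86e-07) and Lox fell (-0.38 ± 0.12, adjusted p = 0.0145), the latter not called without naive replicate 1 (adjusted p = 0.0728). The small leucine-rich proteoglycans, which bind collagen fibrils, included several that fell. Osteomodulin (Omd) was at 11.2, 8.93 and 9.21 CPM in naive and 1.65, 2.04 and 2.49 CPM in STIA (-2.26 ± 0.19, adjusted p = 1.45e-08). Ogn, Prelp and Aspn changed by -1.42 ± 0.09, -1.14 ± 0.11 and -1.18 ± 0.12 on the log2 scale, each with an adjusted p of 6.24e-07 or smaller. Has2, a synthase of hyaluronan, rose (0.50 ± 0.13, adjusted p = 0.00553).

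Proteases were mixed. Of 18 matrix metalloproteinases and inhibitors 9 were lower and 2 higher. The collagenase gene Mmp13, a main collagen-cleaving enzyme of the mouse joint, was at 211, 199 and 215 CPM in naive and 44.7, 56.2 and 60.2 CPM in STIA, lower in all 3 STIA libraries (-1.96 ± 0.33, adjusted p = 5.33e-04). Stromelysin 1 (Mmp3) was at 20.3, 22.9 and 23.2 CPM and 8.51, 10.4 and 11.04 CPM (-1.15 ± 0.33, adjusted p = 0.0166), and without STIA replicate 1 its p was 0.063. The 2 that rose were low. Mmp9, a gelatinase, reached 1.93, 2.15 and 2.17 CPM from 0.694, 0.496 and 0.973 CPM (1.52 ± 0.30, adjusted p = 3.82e-04). Mmp10 (stromelysin 2) was at or near the floor in naive, at 0.0631, 0.0709 and 0.139 CPM, and at 1.40, 0.691 and 1.28 CPM in STIA (3.61 ± 0.69, adjusted p = 7.50e-04), a size that rests on few counts. Of 25 ADAM and ADAMTS proteases 12 were lower and 4 higher. The membrane protease Adam19 was at 110.3, 114 and 101 CPM and 254, 245 and 229 CPM (1.16 ± 0.09, adjusted p = 7.41e-09), and Adamts14, which trims procollagen, rose from 8.66 ± 1.11 to 18.1 ± 1.68 CPM.

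In the plasminogen system urokinase bound to its receptor makes plasmin at the cell surface. The list of this system and of cathepsins had 3 higher and 1 lower of 14 members tested, against 18.6% and 18.2% of all genes. The urokinase receptor gene Plaur was at 22.1, 26.9 and 26.9 CPM in naive and 66.0, 61.2 and 57.2 CPM in STIA (1.28 ± 0.10, adjusted p = 1.30e-08). Serpinb2, an inhibitor of plasminogen activators, was scarce in naive cells at 0.568, 0.461 and 0.764 CPM and stood at 7.44, 4.99 and 3.59 CPM in STIA (3.17 ± 0.51, adjusted p = 2.69e-04). STIA replicate 3 had the lowest of the STIA values and was still above all naive libraries. Serpine2, another inhibitor of plasminogen activators, fell (-0.91 ± 0.12, adjusted p = 1.52e-05). Plaur, Serpinb2 and Adam19 each have an AP-1 site (TGANTCA, the site of Fos and Jun dimers) in the 250 bases before their start. It was present on either strand for 5.92% of tested genes with an entry, for 15.6% (38 of 244) of those at least 2-fold higher and for 9.25% of those at least 2-fold lower. The stretches run from 20 bases before the site, in capitals, to the base before the start.
Plaur (chr7:24462394-24462482, plus strand): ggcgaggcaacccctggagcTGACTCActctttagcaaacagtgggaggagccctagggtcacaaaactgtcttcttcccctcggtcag
Serpinb2 (chr1:107511309-107511422, plus strand): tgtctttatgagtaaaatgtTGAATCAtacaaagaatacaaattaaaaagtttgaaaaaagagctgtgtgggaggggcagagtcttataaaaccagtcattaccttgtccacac
Adam19 (chr11:46055833-46055983, plus strand): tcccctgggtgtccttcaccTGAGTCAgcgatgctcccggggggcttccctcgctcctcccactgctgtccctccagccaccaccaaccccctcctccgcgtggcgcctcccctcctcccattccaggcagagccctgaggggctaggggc

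Markers of fibroblast subtypes moved in both directions. Of 20 sublining and universal fibroblast genes 12 were lower and 2 higher (median -0.83); the higher count was 0 without STIA replicate 1 and 1 without STIA replicate 2 or 3 or naive replicate 1 or 3. Pdgfra, the PDGF receptor that defines many resident fibroblasts, was at 309, 316 and 327 CPM in naive and 138, 139.5 and 154 CPM in STIA (-1.14 ± 0.08, adjusted p = 8.38e-10). Clec3b, which marks universal fibroblasts of adventitia, was low and fell from 1.70, 2.73 and 2.08 CPM to 0.275, 0.109 and 0.178 CPM (-3.46 ± 0.40, adjusted p = 7.16e-07). Fibulin 1 (Fbln1) changed by -1.14 ± 0.11 (adjusted p = 3.14e-07). The sublining marker Thy1 was at 593, 603 and 538 CPM in naive and 634, 644 and 694 CPM in STIA and did not pass (0.19 ± 0.08, adjusted p = 0.0627), although it passed under 4 of the 15 other settings tried. Cd34 did not pass either (-0.40 ± 0.22, adjusted p = 0.17); it passed under 2 of the 15 other settings, with the 6 libraries fitted alone and without the filter. Of 11 lining genes 4 were lower and 3 higher. Prg4, which encodes the lubricin of joint fluid and defines lining fibroblasts, was at 2452, 2435 and 2164 CPM and 1274, 1094 and 1110 CPM (-1.02 ± 0.11, adjusted p = 3.57e-07). Clusterin (Clu) fell too (-1.49 ± 0.27, adjusted p = 5.90e-04), whereas podoplanin (Pdpn) rose from 181 ± 3.17 to 258 ± 9.15 CPM and the laminin receptor chain Itga6 from 21.2 ± 0.756 to 45.4 ± 5.34 CPM. Fap, a surface protease of activated fibroblasts, was at 11.8, 9.39 and 8.89 CPM and 5.10, 7.10 and 6.39 CPM and did not pass (-0.71 ± 0.28, adjusted p = 0.0624); it passed under 6 of the 15 other settings.

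**Figure D3:**
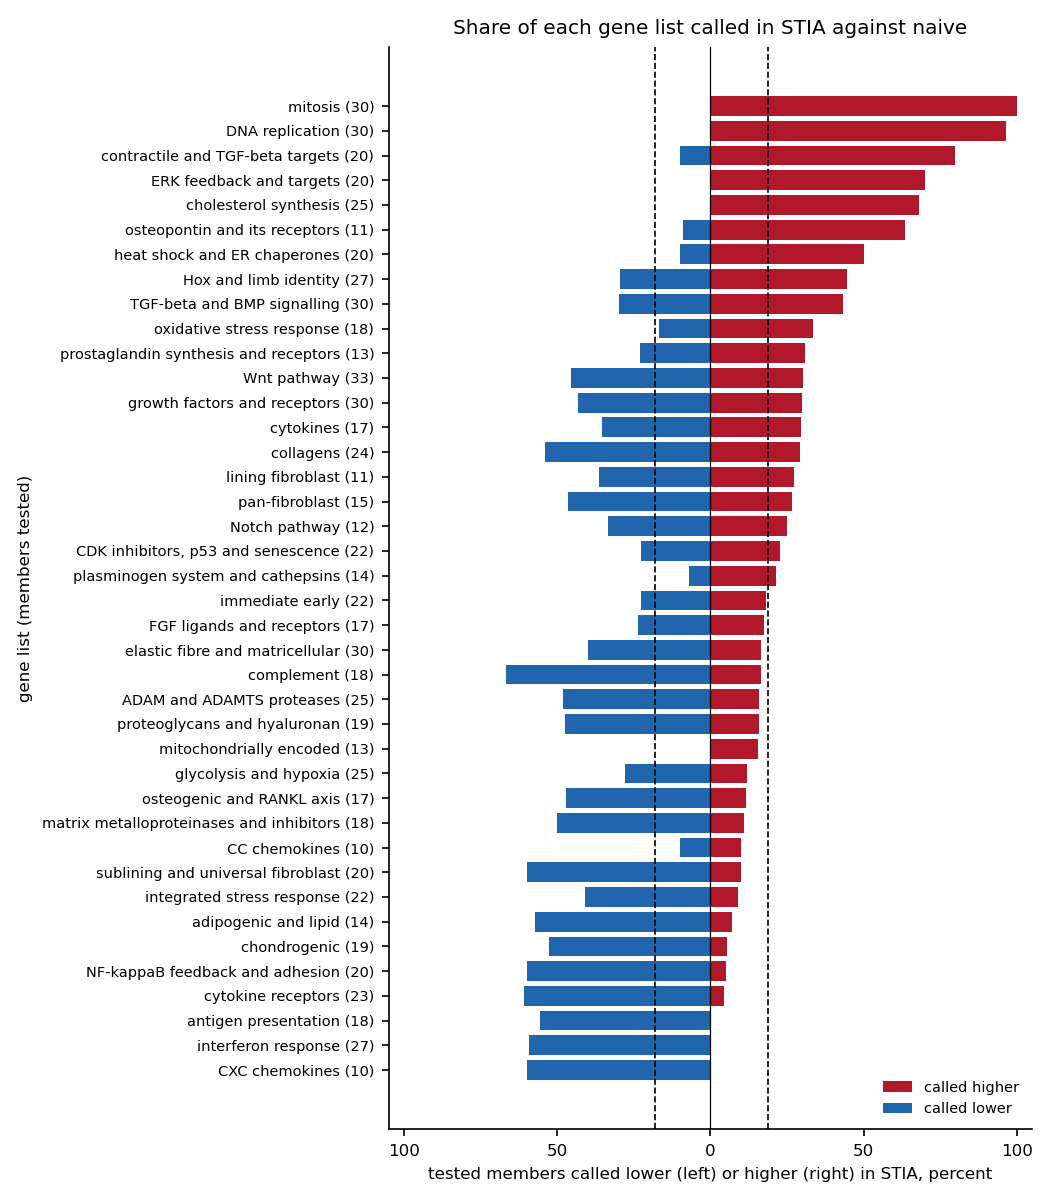
Share of tested members called higher (red, to the right) and lower (blue, to the left) in STIA for 40 gene lists (y axis), with the number tested in brackets. Dashed lines mark the shares over all 15072 genes (18.6% higher, 18.2% lower); mitosis and DNA replication reach farthest right and complement genes farthest left.

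CXC chemokine genes were lower in STIA or did not pass. Of 10 tested genes of the CXC chemokine list, which includes the receptor gene Ackr3, 6 were lower and 0 higher, with a median of -0.87. Cxcl12, which retains leukocytes that carry CXCR4, was at 319, 305 and 291 CPM in naive and 162, 166 and 173 CPM in STIA (-0.87 ± 0.11, adjusted p = 9.50e-06). Its scavenging receptor Ackr3 fell from 80.7, 86.7 and 78.0 CPM to 34.3, 31.5 and 36.9 CPM (-1.26 ± 0.17, adjusted p = 5.43e-05). The neutrophil attractants Cxcl1 and Cxcl5 stood at 48.2, 40.4 and 51.5 CPM and 165, 148 and 151 CPM in naive. In STIA they were at 23.7, 25.4 and 27.9 CPM and 52.7, 60.4 and 81.7 CPM (-0.87 ± 0.16, adjusted p = 3.42e-04, and -1.25 ± 0.25, adjusted p = 0.00161). Ccl2, which attracts monocytes, did not pass, at 58.0, 54.0 and 59.7 CPM and 58.2, 56.8 and 60.2 CPM (0.03 ± 0.19, adjusted p = 0.93).

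Cytokines divided, with 5 of 17 higher, or 3 without STIA replicate 1 or 2, and 6 lower. Csf1, the growth factor of macrophages, was at 1255, 1262 and 1234 CPM in naive and 2291, 2208 and 2024 CPM in STIA (0.80 ± 0.10, adjusted p = 2.60e-06). The IL-6 family members Il11 and Lif rose as well, Il11 from 4.87 ± 0.423 to 8.54 ± 0.379 CPM and Lif from 26.6 ± 0.843 to 37.4 ± 2.23 CPM. Il6 itself was low and lower in STIA, at 4.26, 3.97 and 4.79 CPM against 1.96, 2.44 and 2.17 CPM (-0.99 ± 0.26, adjusted p = 0.00412). The IL-1 receptor antagonist Il1rn showed the strongest fall of the list, from 136, 140.3 and 134 CPM to 24.9, 26.3 and 32.6 CPM (-2.29 ± 0.25, adjusted p = 1.65e-05). Tnfsf11, the osteoclast factor RANKL, was at 19.6, 17.97 and 24.8 CPM and 9.20, 10.6 and 11.1 CPM (-1.02 ± 0.19, adjusted p = 3.55e-04). Of 23 cytokine receptors 14 were lower and 1 higher (2 without naive replicate 2). Among them Il6st, the signalling chain gp130 of the IL-6 family, was at 2015, 1912 and 1858 CPM in naive and 909, 897 and 1126 CPM in STIA (-0.98 ± 0.09, adjusted p = 2.48e-08), and the TNF receptor Tnfrsf1a changed by -0.41 ± 0.06 (adjusted p = 5.67e-06).

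NF-kappaB feedback and adhesion genes had 12 lower and 1 higher of 20. Bcl3, a nuclear partner of NF-kappaB, was at 33.3, 39.9 and 38.2 CPM in naive and 15.7, 15.3 and 18.2 CPM in STIA (-1.18 ± 0.18, adjusted p = 1.05e-04), the subunit gene Relb at 23.4, 26.5 and 25.0 CPM and 16.002, 15.9 and 15.8 CPM (-0.65 ± 0.09, adjusted p = 9.73e-06), and the leukocyte adhesion gene Vcam1 at 155, 134 and 143 CPM and 95.3, 100 and 97.9 CPM (-0.56 ± 0.08, adjusted p = 8.85e-06). The member that rose was Ptgs2, the inducible cyclooxygenase of prostaglandin synthesis. Ptgs2 stood at 145, 142 and 141 CPM in naive and 526, 487 and 442 CPM in STIA (1.77 ± 0.19, adjusted p = 1.13e-05). The constitutive cyclooxygenase Ptgs1 (1.16 ± 0.10, adjusted p = 2.58e-08) and the phospholipase Pla2g4a, which frees arachidonic acid (0.70 ± 0.07, adjusted p = 2.19e-07), rose with it. Hpgd, which inactivates prostaglandins, fell (-1.09 ± 0.19, adjusted p = 1.05e-04), and so did the prostaglandin F receptor Ptgfr, from 34.6, 32.0 and 32.9 CPM to 9.12, 10.6 and 10.9 CPM (-1.71 ± 0.14, adjusted p = 1.45e-08). Over the whole prostaglandin list 4 of 13 genes were higher and 3 lower.

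Of 18 tested complement genes 12 fell and 3 rose, with a median of -0.57. C3, the central component that all activation routes cleave, was at 34.0, 40.4 and 34.1 CPM in naive and 4.71, 4.77 and 7.99 CPM in STIA (chromosome 17, 57203970 to 57228136). The STIA libraries lay close together and far under naive (-2.64 ± 0.33, adjusted p = 3.59e-05). C4b, which joins the C3 convertase of the classical route, was at 40.9, 49.0 and 41.8 CPM and 5.76, 5.46 and 7.81 CPM (-2.79 ± 0.37, adjusted p = 7.28e-05). Serping1, the C1 inhibitor, went from 94.4, 101 and 90.6 CPM to 22.2, 24.9 and 32.6 CPM (-1.85 ± 0.21, adjusted p = 1.48e-05), and the C1 protease C1ra changed by -1.26 ± 0.15 (adjusted p = 1.00e-05). The lectin-route protease Masp1 rose from 303 ± 23.8 to 444 ± 41.8 CPM. The C5a receptor C5ar1, a myeloid gene, rose but stayed under 1 CPM, at 0.158, 0.0354 and 0 CPM in naive and 0.441, 0.837 and 0.639 CPM in STIA (3.15 ± 0.60, adjusted p = 2.68e-04). It passed with any 1 of the 6 libraries left out, but its log2 fold change then ran from 2.61 to 4.88, the highest without naive replicate 1. Ptprc, the pan-leukocyte gene, had 0 counts in naive and 11 in STIA, and the part of other cells in C5ar1 was not tested.

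Interferon response genes were lower or did not pass. Of 27 tested, 16 were lower and 0 higher, with a median of -0.52. Irf9, a transcription factor of the interferon response, was at 24.3, 24.3 and 25.0 CPM in naive and 17.96, 16.3 and 14.98 CPM in STIA (-0.58 ± 0.13, adjusted p = 0.00113). The antiviral gene Ifit3 was at 7.20, 6.98 and 4.55 CPM and 3.39, 3.31 and 2.63 CPM, with naive replicate 3 lowest of its group but above all STIA libraries (-1.002 ± 0.21, adjusted p = 9.55e-04). Antigen presentation genes had 10 of 18 lower and 0 higher, such as the peptide transporter Tap1 from 25.4 ± 0.418 to 15.9 ± 1.33 CPM and the class I chains H2-K1 (-0.54 ± 0.09, adjusted p = 6.48e-05) and H2-D1 (-0.45 ± 0.07, adjusted p = 6.18e-05); class I chains are near-identical copies, and reads can be split between them. The interferon-stimulated response element was searched as TTTC, any 2 bases and TTTC, on both strands of the 250 bases before the start. It was found for 11 of 22 list genes with an entry (50.0%), 7 of the 14 called lower (50.0%) and 3.10% of all tested genes. Beyond the list it was present for 2.63% of genes called higher and 3.61% of genes called lower. Among genes at least 2-fold higher it was present for 5.74%, and among those at least 2-fold lower for 5.07%. The stretches show it in capitals for 4 genes that fell, from 20 bases before the first element to the base before the start; in Gbp3 2 matches overlap.
Ifit1 (chr19:34640765-34640888, plus strand): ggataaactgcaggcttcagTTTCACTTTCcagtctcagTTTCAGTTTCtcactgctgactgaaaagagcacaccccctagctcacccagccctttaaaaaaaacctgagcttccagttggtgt
Ifit3 (chr19:34583353-34583528, plus strand): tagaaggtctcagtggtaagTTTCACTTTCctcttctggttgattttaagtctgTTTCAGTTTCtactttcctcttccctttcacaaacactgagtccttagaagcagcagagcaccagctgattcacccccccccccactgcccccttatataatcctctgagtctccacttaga
Stat2 (chr10:128270256-128270497, plus strand): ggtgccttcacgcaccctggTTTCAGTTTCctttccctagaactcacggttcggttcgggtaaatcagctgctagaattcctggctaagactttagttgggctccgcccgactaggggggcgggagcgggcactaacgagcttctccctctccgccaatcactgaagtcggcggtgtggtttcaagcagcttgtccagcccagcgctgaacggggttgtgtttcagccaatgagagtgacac
Gbp3 (chr3:142559979-142560043, plus strand): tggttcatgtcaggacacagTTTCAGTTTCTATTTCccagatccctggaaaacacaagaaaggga

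Ifit1, Stat2 and Gbp3 were picked for these elements after their values were seen. Ifit1, which binds foreign RNA ends, was at 3.38, 3.61 and 4.20 CPM in naive and 1.68, 1.27 and 1.63 CPM in STIA (-1.28 ± 0.33, adjusted p = 0.00511). Stat2 was at 23.8, 23.8 and 20.5 CPM and 18.4, 17.2 and 12.2 CPM (-0.51 ± 0.13, adjusted p = 0.00328). The guanylate-binding protein gene Gbp3 was at 3.22, 2.37 and 3.27 CPM and 1.43, 1.35 and 1.17 CPM (-1.16 ± 0.31, adjusted p = 0.00651).

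Feedback genes of ERK, the kinase that growth factor receptors switch on, were higher or did not pass. Of 20 tested, 14 were higher and 0 lower, with a median of 0.49. Dusp4, a phosphatase that turns off ERK in the nucleus, was at 5.49, 5.63 and 6.64 CPM in naive and 30.2, 26.6 and 27.4 CPM in STIA (2.25 ± 0.14, adjusted p = 1.31e-09). Etv4, an ETS factor made in response to FGF signals, was at 6.66, 7.83 and 8.13 CPM and 32.6, 26.7 and 23.9 CPM (1.89 ± 0.19, adjusted p = 2.10e-06). The growth factor Fgf2, one of the 2 factors added to other cells of the series, was at 72.3, 62.9 and 67.5 CPM in naive and 166, 161 and 137 CPM in STIA (1.19 ± 0.18, adjusted p = 1.92e-04). Its receptors differed, Fgfr1 not passing (-0.06 ± 0.05, adjusted p = 0.403) and Fgfr2 falling from 69.3, 64.4 and 65.0 CPM to 34.9, 32.5 and 33.1 CPM (-0.98 ± 0.10, adjusted p = 3.61e-07). Over the FGF list 3 of 17 were higher and 4 lower, the latter count being 2 without STIA replicate 1 or 2, 1 without STIA replicate 3 or naive replicate 1 or 3, and 2 in DESeq2. Of ligands of the EGF receptor, Hbegf rose from 38.5 ± 1.05 to 87.7 ± 3.88 CPM and Ereg from 13.1 ± 1.11 to 35.5 ± 5.33 CPM. Igfbp4, which binds insulin-like growth factors, was at 5078, 5482 and 5496 CPM in naive and 2478, 2473 and 2752 CPM in STIA (-1.06 ± 0.08, adjusted p = 3.24e-09).

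Of osteopontin and the genes of its receptors, 7 of 11 were higher and 1 was lower. Spp1, which encodes osteopontin, was at 1423, 1470 and 1373 CPM in naive and 1885, 1945 and 1916 CPM in STIA. The groups did not overlap, but the difference was small and close to the threshold (0.43 ± 0.15, adjusted p = 0.0272), and with any 1 of the 6 libraries left out the p lay between 0.0531 and 0.0791. Cd44, a receptor of osteopontin and of hyaluronan, was at 212, 184 and 215 CPM and 498, 474 and 430.2 CPM (1.20 ± 0.12, adjusted p = 3.05e-07). Of the integrin chains that bind osteopontin through its RGD motif, Itgav was at 186, 154 and 186 CPM and 348, 339 and 322 CPM (0.94 ± 0.14, adjusted p = 1.01e-04). Itgb3, its partner in the vitronectin receptor, was at 29.2, 28.0 and 28.5 CPM and 55.0, 55.3 and 60.9 CPM (1.00 ± 0.08, adjusted p = 3.24e-09). Itga5 rose by 1.09 ± 0.08 (adjusted p = 1.42e-09) and the scarce Itga8 by 2.04 ± 0.21 (adjusted p = 1.38e-07) on the log2 scale. The member that fell was Itgb5 (-0.15 ± 0.06, adjusted p = 0.0412), and it was not called under 6 of the 15 other settings, among them without STIA replicate 1 or 2 or naive replicate 2 or 3 (highest p 0.186).

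TGF-beta and BMP genes had 13 higher and 9 lower of 30, among them secreted ligands and antagonists. Inhba, the chain of activin A, was at 136, 120.2 and 141 CPM in naive and 513, 546 and 504 CPM in STIA (1.98 ± 0.11, adjusted p = 9.61e-11). The BMP antagonist Grem1 rose from 85.4, 77.4 and 83.7 CPM to 236, 244 and 216 CPM (1.497 ± 0.09, adjusted p = 6.13e-11). Another BMP antagonist, chordin (Chrd), fell (-1.09 ± 0.10, adjusted p = 2.61e-08). Bmp4 was at 10.4, 10.8 and 10.8 CPM in naive and 2.73, 3.93 and 3.02 CPM in STIA (-1.74 ± 0.18, adjusted p = 3.60e-07). Ccn2, connective tissue growth factor, stood at 325, 349.9 and 337 CPM and 1222, 1198 and 1112 CPM (1.80 ± 0.21, adjusted p = 1.87e-05), with 23.2% of its exon bases shared with another gene. In the Wnt pathway 10 of 33 genes were higher and 15 lower. Wnt16, a Wnt ligand of bone and joint, was at 53.7, 50.8 and 55.5 CPM in naive and 11.8, 9.86 and 12.5 CPM in STIA (-2.22 ± 0.14, adjusted p = 1.16e-09). Rspo2, which amplifies Wnt signals at the receptor, was at 59.5, 58.4 and 54.8 CPM and 14.5, 10.7 and 15.2 CPM (-2.10 ± 0.11, adjusted p = 5.96e-11). Lef1, a nuclear effector of the pathway, went from 0.158, 0.354 and 0.174 CPM to 1.79, 2.001 and 1.56 CPM (2.96 ± 0.45, adjusted p = 2.37e-05), the reverse of the 2 secreted factors. The higher count of the TGF-beta and BMP list was 6 without STIA replicate 2, 8 without STIA replicate 3, 8 without naive replicate 1 and 7 without naive replicate 2. That of the Wnt list was 6 without naive replicate 2.

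Skeletal lineage genes were lower more often than higher. Of 19 chondrogenic genes 10 were lower and 1 higher (median -0.78), and of 17 osteogenic genes 8 were lower and 2 higher. Sox9, the master factor of cartilage, was at 76.8, 70.4 and 75.6 CPM in naive and 43.3, 40.7 and 45.9 CPM in STIA (-0.78 ± 0.09, adjusted p = 6.01e-07), and its partner Sox6 at 16.1, 12.9 and 15.5 CPM and 5.26, 4.69 and 6.68 CPM (-1.42 ± 0.14, adjusted p = 8.09e-08). The cartilage matrix gene Cilp changed by -1.29 ± 0.15 (adjusted p = 1.02e-05). Alkaline phosphatase (Alpl), which frees phosphate for mineral, was at 25.2, 23.2 and 21.7 CPM and 4.05, 5.57 and 5.18 CPM (-2.25 ± 0.35, adjusted p = 1.90e-04). Bone sialoprotein (Ibsp), a mineral-binding relative of osteopontin, was at 5.11, 5.60 and 5.63 CPM and 0.441, 0.619 and 0.817 CPM (-3.14 ± 0.45, adjusted p = 4.08e-05). Tnfrsf11b, the RANKL decoy osteoprotegerin, fell beside Tnfsf11, from 50.5, 42.2 and 46.9 CPM to 28.4, 23.1 and 23.3 CPM (-0.90 ± 0.13, adjusted p = 3.11e-05). Ank, a transporter tied to pyrophosphate outside cells, rose (0.92 ± 0.10, adjusted p = 3.69e-07). The lower count of the osteogenic list was 5 without naive replicate 3, and its higher count was 1 without STIA replicate 1, naive replicate 1 or naive replicate 3.

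Hox genes, which record the position of a cell along the body and limb axes, differed by cluster. All 7 tested genes of the HoxC cluster were higher in STIA, with a median log2 fold change of 2.10, whereas 5 of 7 HoxD genes were lower (median -0.57) and 1 of 11 HoxA genes was lower and 0 higher. The background was 18.6% higher and 18.2% lower. Hoxc10 was at 2.56, 3.86 and 3.20 CPM in naive and 7.38, 9.93 and 8.06 CPM in STIA (1.40 ± 0.19, adjusted p = 5.52e-06). Hoxc11 was at 1.36, 1.88 and 2.08 CPM and 7.49, 7.06 and 8.13 CPM (2.10 ± 0.20, adjusted p = 7.84e-08), and Hoxc13 at 1.80, 1.88 and 1.91 CPM and 10.8, 12.2 and 8.49 CPM (2.49 ± 0.20, adjusted p = 4.80e-09). The other 4 were picked after the cluster's pattern was seen and stayed under 2 CPM: Hoxc12 rose by 2.84 ± 0.61, Hoxc9 by 2.14 ± 0.44, Hoxc4 by 1.44 ± 0.43 and Hoxc6 by 1.40 ± 0.40 on the log2 scale. Without naive replicate 1 Hoxc4 had a p of 0.0542 and the log2 fold change of Hoxc12 was 2.23. In the HoxD cluster, Hoxd13, a gene of digits, was far more abundant in counts, at 102, 91.5 and 100.2 CPM and 69.1, 68.0 and 63.4 CPM (-0.55 ± 0.08, adjusted p = 9.94e-06), and Hoxd12 changed by -0.86 ± 0.14 (adjusted p = 3.66e-05). Shox2, a factor of the proximal limb skeleton, rose from 3.76, 2.41 and 3.93 CPM to 14.4, 17.5 and 18.9 CPM (2.32 ± 0.17, adjusted p = 9.19e-10). Some HoxC genes are known for higher activity in hindlimb than in forelimb. Pitx1, the hindlimb factor, averaged 24.2 ± 2.67 CPM in naive and 24.0 ± 0.397 CPM in STIA (adjusted p = 0.924), and its target Tbx4 changed by -0.38 ± 0.08 (adjusted p = 0.00104); both were looked up after the cluster was seen. The labels do not say which paws the cells came from, and the part of limb origin in the HoxC rise was not tested.

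**Figure D4:**
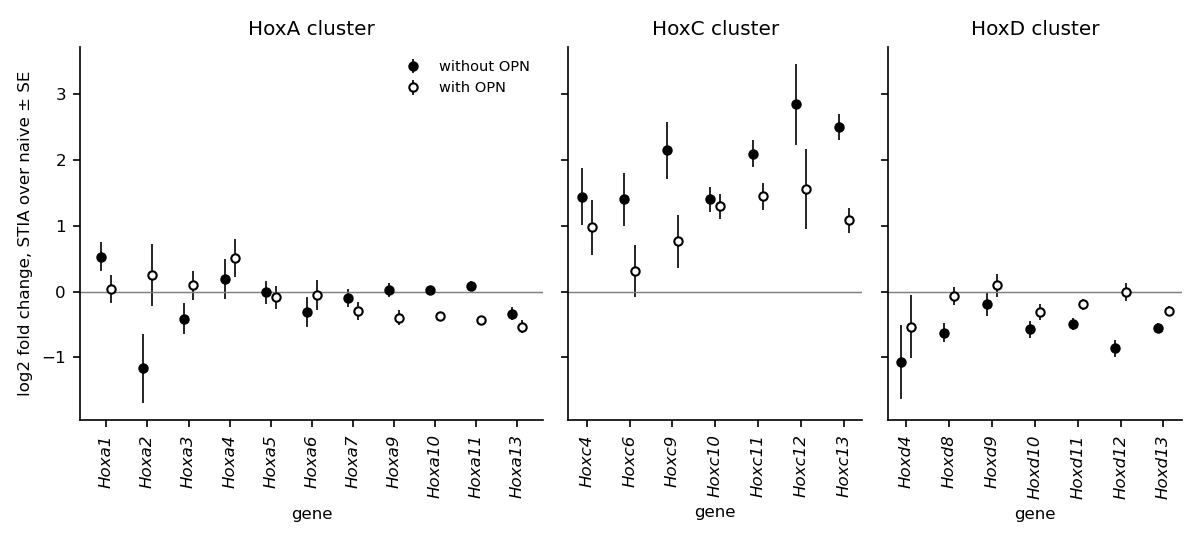
Log2 fold change, STIA over naive ± SE, of the tested genes of the HoxA, HoxC and HoxD clusters (x axis, ordered by gene number), without OPN (filled) and with OPN (open). All 7 HoxC points without OPN lie above 0, from 1.40 to 2.84, the 7 HoxD points without OPN lie under it, and HoxA points lie on both sides.

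Cell cycle genes were higher nearly throughout. All 30 mitosis genes and 29 of 30 DNA replication genes were called higher, against 18.6% of all genes, with medians of 0.54 and 0.56. Mki67, the usual label of cycling cells, was at 102, 104 and 106 CPM in naive and 144, 131 and 139 CPM in STIA (0.41 ± 0.09, adjusted p = 0.00127). Cdk1, the kinase that starts mitosis, was at 48.0, 48.3 and 49.2 CPM and 77.2, 75.7 and 73.1 CPM (0.63 ± 0.10, adjusted p = 6.15e-05). Pcna, the clamp of DNA polymerase, was at 65.1, 70.8 and 70.7 CPM and 93.9, 107 and 90.5 CPM (0.50 ± 0.07, adjusted p = 1.18e-05). These rises were small, and the groups did not overlap for any of the 3 genes. The cell cycle inhibitor Cdkn1a was higher too, from 274 ± 1.80 to 346 ± 0.736 CPM, as was Mdm2, the ligase of p53 (0.57 ± 0.07, adjusted p = 2.69e-06); the list of CDK inhibitors and p53 targets had 5 higher (3 without naive replicate 2) and 5 lower of 22.

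Of 25 cholesterol synthesis genes 17 were higher and 0 lower, at a median of 0.26. Heat shock and ER chaperones had 10 higher and 2 lower of 20 (1 lower without any 1 library other than naive replicate 3), led by Hspa1b, an inducible Hsp70, from 12.8, 15.1 and 12.2 CPM to 33.7, 26.1 and 31.8 CPM (1.20 ± 0.13, adjusted p = 5.19e-07). Glycolysis and hypoxia genes had 3 higher and 7 lower of 25. Ndrg1, a gene of low oxygen, was at 100, 106 and 93.3 CPM in naive and 38.3, 38.5 and 49.0 CPM in STIA (-1.25 ± 0.12, adjusted p = 4.18e-07), and the glycolysis activator Pfkfb3 changed by -0.96 ± 0.12 (adjusted p = 7.11e-06). Sod3, the extracellular superoxide dismutase, was at 634, 637 and 648 CPM and 234, 247 and 269.5 CPM (-1.35 ± 0.10, adjusted p = 9.45e-09), while Nqo1, a target of the oxidative stress factor Nrf2, rose from 31.0 ± 0.769 to 59.7 ± 6.80 CPM. Immediate early genes, which respond within minutes to serum or cell handling, had 4 higher and 5 lower of 22, and Egr2 rose (0.94 ± 0.10, adjusted p = 4.18e-07) while Zfp36 fell (-0.33 ± 0.06, adjusted p = 2.29e-04). Genes of the integrated stress response had 2 higher (1 without any 1 of the 6 libraries) and 9 lower of 22, and oxidative stress genes 6 higher and 3 lower of 18. Adipogenic and lipid genes had 1 higher and 8 lower of 14, with the fatty acid carrier Fabp4 at 29.1, 34.9 and 34.6 CPM in naive and 19.5, 19.9 and 20.8 CPM in STIA (-0.71 ± 0.11, adjusted p = 4.24e-05); the adipocyte markers Adipoq, Plin1 and Cidec averaged under 0.1 CPM in both groups. Growth factors and their receptors had 9 higher and 13 lower of 30, Notch genes 3 higher and 4 lower of 12, pan-fibroblast genes 4 higher and 7 lower of 15 and CC chemokines 1 of each among 10. The higher count was 1 for Notch genes without STIA replicate 1 or 2 or naive replicate 2, and 2 for pan-fibroblast genes without STIA replicate 1 or 2 or naive replicate 1 or 3. For CC chemokines the higher count was 0 without STIA replicate 1 or naive replicate 1 or 3, and the lower count 0 without STIA replicate 2 or 3 or naive replicate 3. Of 13 mitochondrially encoded genes 2 were higher and 0 lower, with 0 higher without STIA replicate 2 and 1 without any other single library but STIA replicate 3, and their share of all counts was 0.3736% to 0.6664% in naive and 0.3834% to 0.6944% in STIA. For the CXC chemokine, interferon, antigen presentation, ERK feedback, DNA replication, mitosis, cholesterol and mitochondrially encoded lists, where edgeR called 0 members in 1 direction, the count in that direction was also 0 at an unadjusted p below 0.05 and in DESeq2 and limma-voom; with the 6 libraries fitted alone 1 antigen presentation gene was higher. For HoxA genes 1 was higher at an unadjusted p below 0.05. With OPN 1 interferon response gene was higher at an unadjusted p below 0.05, and 0 immediate early and 0 glycolysis genes were lower at it.

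The series holds another comparison of STIA with naive cells, made with OPN in both, in 6 other libraries. There 6030 of 15072 genes (40.0%) were called, 3184 higher (21.1%) and 2846 lower (18.9%). Of the 5550 genes called without OPN, 4127 (74.4%) had the same sign with OPN. Of those, 2488 were also called, which is 44.8% of the genes called without OPN and 41.3% of those called with it, and 499 genes (9.0%) were called in the opposite direction. The log2 fold changes of the 2 comparisons had a Pearson r of 0.36 and a Spearman rho of 0.378 across 15072 genes, which are not independent replicates. Among the 15 largest rises 14 had the same sign and 12 were called, and among the 15 largest falls 13 had the same sign and 12 were called. The difference between the 2 effects was itself called for 3364 genes (22.3%).

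**Figure D5:**
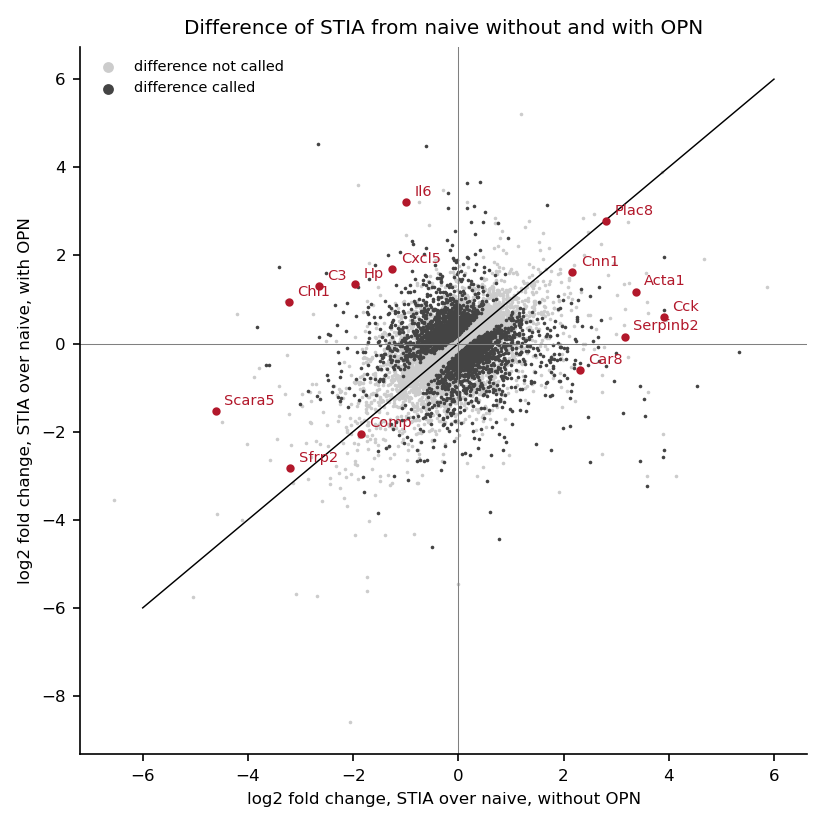
Log2 fold change of STIA over naive without OPN (x axis) and with OPN (y axis) for 15072 genes. Dark points are the 3364 genes whose difference between the 2 effects passed the test; the diagonal marks equal effects, and C3, Cxcl5, Il6 and Hp lie in the upper left while Cck, Serpinb2 and Car8 lie near the x axis on the right.

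Mitosis genes were called higher for 30 of 30 with OPN too, and the difference of the effects was called for 1 of them. Contractile genes were higher for 14 of 20 with OPN, at a median of 0.57 in place of 1.30, and Cnn1 gave 1.63 ± 0.33 (adjusted p = 0.00164), a difference of -0.54 ± 0.46 that did not pass (adjusted p = 0.45). Of 19 chondrogenic genes 17 were lower with OPN, and Comp gave -2.05 ± 0.14 (adjusted p = 1.09e-08). Mest fell in both, at -3.08 ± 0.18 with OPN, and the difference of -0.22 ± 0.26 did not pass (adjusted p = 0.588). For Sfrp2 the value with OPN was -2.83 ± 0.32 and the difference 0.36 ± 0.48 (adjusted p = 0.652). HoxC genes had a median of 1.08 with OPN against 2.10 without.

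With OPN some inflammatory and stress lists held more genes higher in STIA than lower, and others the reverse. The CXC chemokine list with Ackr3, 6 lower and 0 higher of 10 without OPN, had 6 higher and 3 lower with it. Immediate early genes went from 4 higher and 5 lower to 20 higher and 0 lower of 22. Glycolysis genes went from 3 higher and 7 lower to 20 higher and 0 lower of 25. The difference between the effects was called for 5 of 10, 18 of 22 and 21 of 25 of these genes, against 22.3% of all genes. NF-kappaB feedback and adhesion genes had 12 higher and 2 lower of 20 with OPN, and integrated stress response genes 10 higher and 2 lower of 22. Interferon response genes stayed on the lower side, with 8 lower and 0 higher of 27, as did antigen presentation genes with 7 lower and 1 higher of 18 and complement genes with 7 lower and 2 higher of 18. Oxidative stress genes had 6 higher and 7 lower of 18. Il6 was at 0.352, 0.464 and 0.301 CPM in naive cells with OPN and 3.63, 4.22 and 2.64 CPM in STIA cells with OPN, a log2 fold change of 3.21 ± 0.32 (adjusted p = 8.58e-08). Its fold change without OPN had been -0.99 ± 0.26, and the difference between the 2 was 4.20 ± 0.41 (adjusted p = 3.38e-07). C3 was at 4.97, 3.58 and 7.76 CPM and 14.3, 13.5 and 12.03 CPM with OPN (1.31 ± 0.33, adjusted p = 0.00679), and its difference was 3.96 ± 0.46 (adjusted p = 5.61e-05). Cxcl5 was at 36.4, 25.9 and 54.1 CPM and 109.6, 141 and 124 CPM (1.69 ± 0.25, adjusted p = 1.72e-04), with a difference of 2.95 ± 0.36 (adjusted p = 7.95e-05). Naive cells averaged 36.2 CPM of C3 without OPN and 5.44 CPM with it, and STIA cells 5.82 and 13.3 CPM. For Cxcl5 the means in the same order were 155 and 38.8 CPM in naive and 64.9 and 125 CPM in STIA. The response of either group to OPN was not tested here. The acute-phase gene Hp, which encodes haptoglobin, had -1.96 ± 0.20 without OPN and 1.34 ± 0.23 with it (difference adjusted p = 2.26e-07). Shisal1, Gzmb and Chl1 were likewise lower in STIA without OPN and higher with it. For Chl1 the groups with OPN overlapped, at 1.05, 0.850 and 2.91 CPM in naive and 3.59, 3.07 and 2.18 CPM in STIA (adjusted p = 0.0435). Cck, with that large rise without OPN, was at 6.91, 15.3 and 7.03 CPM in naive and 13.9, 13.7 and 16.9 CPM in STIA with OPN (0.59 ± 0.23, adjusted p = 0.0492), so the 2 groups were much closer there (difference -3.32 ± 0.36, adjusted p = 1.73e-05). Serpinb9b and Adcyap1r1 were higher in STIA without OPN, at 1.75 ± 0.23 and 2.13 ± 0.52, and lower with it, at -1.19 ± 0.21 and -1.23 ± 0.45 (adjusted p = 1.44e-04 and 0.0455). With OPN Adcyap1r1 was at 6.81, 21.8 and 5.92 CPM in naive and 5.02, 4.92 and 4.89 CPM in STIA. Replicate 2 of the naive cells with OPN thus stood far above the others, and the fall of Adcyap1r1 leans on it. Gzmb, known as a granzyme of cytotoxic lymphocytes, was at 8.24, 10.8 and 9.69 CPM in naive, where Cd3e and Nkg7 were at 0.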

How the data were processed

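Total RNA was prepared with a column kit and sequenced as paired-end reads, per the labels' protocols. Per the submitters' processing notes, STAR, featureCounts and GRCm38 (mm10) were used; the sources used here do not give versions, annotation release, strand setting or the treatment of reads that fit several genes. What the authors deposited is 1 table of unnormalized read counts by gene for 18 libraries, with 0 columns outside the series' samples. Of 32285 identifiers 32158 matched GENCODE M21 by identifier and took their symbols and coordinates from it. Without the strand setting, reads of overlapping genes cannot be told apart.

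Counts were filtered (edgeR's filterByExpr on the 6 groups), scaled by TMM and fitted over all 18 libraries with edgeR 4.0.16 (R 4.3.3) by the quasi-likelihood test, robust, with Benjamini-Hochberg adjustment over 15072 genes; the 6 groups of 3 share 1 estimate of spread. Levels are CPM on TMM-scaled sizes, markers CPM on plain totals. Counts were also simulated for the 15072 genes, with the fitted spread and known changes in a few genes of at least 1 CPM in naive. Of 67 genes changed 1.5-fold 60 (89.6%) were recovered, of 67 changed 2-fold 66 (98.5%) and of 66 changed 4-fold 66 (100%). Unchanged genes made up 3.03% of calls. In the data 36.8% of genes were called, far more than were changed in the simulation, so these shares are no error rates for the data. Named genes were the 15 largest rises and 15 largest falls with a group mean of at least 5 CPM and groups without overlap, the 10 largest absolute differences each way, up to 4 called members per list and direction by adjusted p, 5 each way for the difference with OPN, and a set taken whatever its values; of 285 such genes the text gives those it describes. Members, lists and rules were chosen with earlier results of these data known. Alternatives were DESeq2 1.42.0, limma-voom (3.58.1), other scalings and filters, the 6 libraries alone, a replicate block, each replicate left out and, after the data were seen, leaving out FGF2 replicate 2. Promoters are RefSeq's, build GRCm38.p6; proteins and genome sequence were not used here. Libraries of 1 group differed by more than sampling noise (chi-square per degree of freedom 5.66 to 10.88), so none was merged.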

Additional observations from a re-analysis of the deposited data

Results flagged for a closer look

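The difference of STIA from naive was measured once without osteopontin (OPN) and once with it, in separate libraries, and a test of the difference between these effects (the interaction term in edgeR, adjusted over all 15072 genes) passed for 92 of 170 genes named in the text, against 22.3% of all genes. The naming rule took 10 genes for this difference, and others were named because they changed without OPN, so this share is a description. Values in brackets are the log2 effect with OPN minus that without; adjusted p-values ran from 1.22e-11 to 0.0499. OPN was given for 3 days, and the sources used here do not say how long the unstimulated cells were kept. The bracketed values do not say whether naive cells, STIA cells or both differed between the conditions.

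For 19 genes both effects passed in opposite directions. Those lower in STIA without OPN and higher with it were Tgfbi (1.41), Zfp36 (1.73), Ackr3 (1.74), Tnfsf11 (2.28), Bcl3 (2.50), Cxcl5 (2.95), Cxcl1 (3.12) and Gzmb (3.16). They also included Shisal1 (3.23), Hp (3.30), C3 (3.96), Chl1 (4.15) and Il6 (4.20). Those higher without OPN and lower with it were Adcyap1r1 (-3.35), Serpinb9b (-2.94), Nqo1 (-1.35), Col8a1 (-1.05), Mdm2 (-0.79) and Cdkn1a (-0.52). In naive cells with OPN, Adcyap1r1 was at 21.8 CPM in replicate 2 and at 6.81 and 5.92 CPM in replicates 1 and 3. For Chl1 the STIA and naive libraries with OPN overlapped.

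Rises that passed without OPN and did not pass with it were those of Serpinb2 (-3.01), Car8 (-2.92), Itga8 (-2.40), Ccn2 (-1.85), Fgf2 (-1.40), Itga6 (-1.33) and Itgav (-1.16). The same held for Cd68 (-0.97), Ank (-0.94), Csf1 (-0.67), Pcna (-0.40) and Masp1 (-0.38).

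Falls that passed without OPN and did not pass with it were those of H2-K1 (0.37), Col1a2 (0.49), Notch3 (0.55), Tnfrsf1a (0.55), Col1a1 (0.70), Col6a1 (0.78) and Relb (0.82). The same was found for Hoxd12 (0.86), Prg4 (0.91), Il6st (0.93), Col6a2 (0.97), Ndrg1 (1.09), Pfkfb3 (1.12) and Pdgfra (1.13). More of them were Sod3 (1.25), Col3a1 (1.35), Fbln1 (1.38), Mmp3 (1.87), Ptgfr (1.96) and Steap4 (3.16).

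Effects in the same direction but smaller with OPN were those of Cck (-3.32), Acta1 (-2.20), Dusp4 (-1.64), Inhba (-1.59), Hoxc13 (-1.41), Htr1b (-1.39) and Lmod1 (-1.30). Smaller effects were also found for Etv4 (-1.10), Shox2 (-1.08), Grem1 (-0.94), Plaur (-0.80), Hbegf (-0.72), Cd44 (-0.68) and Hspa1b (-0.67). To these came Loxl3 (-0.65), Ptgs1 (-0.54), Tpm2 (-0.52), Postn (-0.44), Cnn2 (-0.43), Tpm1 (-0.38) and Tnc (-0.37). A further set was Adam19 (-0.36), Actb (-0.35), Rspo2 (0.65), Chrd (0.76), Thbs4 (0.77), Wnt16 (0.99) and Il1rn (1.09). Last of these were Serping1 (1.29), Lbp (1.38) and Scara5 (3.08). Effects in the same direction and larger with OPN were those of Tnfrsf11b (-1.30), Fgfr2 (-1.15), Aspn (-0.60), Serpine2 (-0.59), Mcam (1.09), Lif (1.14) and Egr2 (1.45). Genes that did not pass without OPN but whose effects differed were Fgfr1 (0.31), Thy1 (0.40) and Sox10 (1.47). No group here had more than 3 libraries, so single libraries were not tested as outliers.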

How the results depend on the processing

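The number of genes called for STIA against naive was 5550, and it was 6075 with the 6 libraries fitted alone, 5683 in DESeq2, 5442 in limma-voom, 5514 with library totals, 5404 without the filter and 5866 without FGF2 replicate 2, the library farthest from its group. With library totals 53.5% of calls were higher, against 50.6% with TMM. Leaving out 1 of the 6 libraries gave 4416 to 4886 calls. With OPN the range was 5083 to 5374, and for the difference of the effects 2650 to 3280. All 147 recomputed counts over all genes stayed within 1.5 times the count given in the text.

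Replicate numbers are shared between groups, but same-numbered STIA and naive libraries did not deviate together: the correlations of their deviations from the group means were 0.0166, -0.0368 and 0.0287. The mitochondrially encoded share did follow the number, at 0.6664%, 0.5622% and 0.3736% in naive and 0.6944%, 0.5871% and 0.3834% in STIA. A fit with the replicate number as a block called 5409 genes without OPN, 5910 with OPN and 3225 for the difference.

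Of 4480 single-gene values recomputed, 4332 stayed on their side of the threshold, 133 no longer passed (113 of them with a library left out), 15 newly passed and 0 reversed. Of 170 genes named in the text 12 changed call under at least 1 setting. Of 1530 list counts 103 moved by over 1.5 times. With a library left out, endothelial markers called higher and Schwann markers called lower each fell to 1 in place of 2. Pericyte markers called lower reached 2 in place of 1, and the sex-chromosome list, where Xist was called lower, fell to 0 in place of 1. The other lists that moved with a library left out are given in the text. Other settings moved these list counts by over 1.5 times. With the 6 libraries alone or no filter, metalloproteinases and integrated stress response genes called higher each became 4 in place of 2. Under these settings CDK inhibitor and immediate early genes called lower became 9 and 8 in place of 5 and 5. Plasminogen and cathepsin genes called lower became 3 and 2 in place of 1. Adipogenic genes called higher were 2 and antigen presentation genes 1 with the 6 libraries alone, and mitochondrially encoded genes 4 with no filter. With the 6 libraries alone, DESeq2 or no filter, CC chemokines called higher and pericyte markers called lower were 2 in place of 1. FGF ligands and receptors called lower were 2 in place of 4 with DESeq2, either other scaling or the replicate block. Chaperones called lower were 1 in place of 2 with either other scaling, no filter or the block, and osteopontin receptor genes called lower 0 in place of 1 with no filter or the block. Sublining genes called higher were 1 in limma-voom, and endothelial markers 1 with the 6 libraries alone or the filter at 1 CPM. Genes near the floor, such as Mmp10, C5ar1 and Hoxc4, rest on few counts.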

Other observations

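Some gene families outside the lists were looked at after the values were seen, and are given as counts beside the background of 18.6% higher and 18.2% lower. Of 11 tubulin genes, which build microtubules, 8 were higher in STIA (median log2 fold change 0.48, and 0.73 in the OPN pair). Subunits of the chaperonin TRiC, which folds actin and tubulin, were higher for 7 of 9 (median 0.28), and subunits of the proteasome for 20 of 34 (median 0.21). Of the 3 immunoproteasome subunits, which replace catalytic subunits under interferon, 2 were lower (median -1.03, and 0.19 with OPN). Mitochondrial ribosomal protein genes were higher for 24 of 78 and lower for 1, at a median of 0.13, and cytosolic ribosomal protein genes were higher for 1 of 82 and lower for 7.

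Semaphorins, which are guidance cues for axons and vessels, were lower for 9 of 19 and higher for 2 (median -0.45). Glutathione S-transferases were lower for 8 of 18 and higher for 1, with a median of -0.31 without OPN and -0.6 with it. Aldehyde dehydrogenases were lower for 6 of 18 and higher for 1. Desmosomal genes were higher for 4 of 7 (median 0.61), and laminin chains for 2 of 11 with 3 lower. Several of these families hold near-identical copies, so levels of single members are uncertain.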
